A study of Mus musculus with 2 samples.

Results

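The 47 nuclear receptor genes described here were chosen as a gene family, by symbol, with earlier results of these data known. All 47 were found among the 21631 protein-coding genes that RefSeq places on the 20 chromosomes with peaks. The data are the 3373 Suz12 peaks of 1 chromatin immunoprecipitation library from mouse embryonic stem cells. A peak was assigned to a receptor gene when it overlapped the gene or lay within 2.5 kb of it, which gave 25 peaks at 19 genes. A peak within 2.5 kb of either outer end of the gene was called an end peak, and a peak inside the gene but farther than 2.5 kb from both ends an interior peak.

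The library came from wild-type cells of the line E14-WT, cultured in serum medium and collected after 72 h in a medium that held all-trans-retinoic acid at 1 µM and no leukemia inhibitory factor, which otherwise keeps such cells undifferentiated. A companion library came from a Suz12 knockout line (Suz12-KO, genotype Suz12-/-) at 0 h in serum medium, with the same anti-Suz12 antibody, and it was not analysed here. Both are labelled replicate 1 of their group, so no comparison between groups, replicate error or p-value could be given. The cells of a library were pooled, so a peak cannot be assigned to all or to some of them, and the depth of sequencing is unknown.

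Nuclear receptors are transcription factors that carry a zinc-finger domain for DNA and, in most members, a pocket for a small lipid-soluble ligand such as a steroid, thyroid hormone or retinoic acid. Retinoic acid, the agent used to differentiate these cells, acts through the retinoic acid receptors, which bind DNA as partners of the retinoid X receptors. Suz12 is a core subunit of Polycomb Repressive Complex 2, which methylates a lysine of histone H3 and is found at many silent developmental genes, most often at CpG islands.

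Of the 47 receptor genes, 19 (40.4%, exact 95% binomial interval 26.4 to 55.7) had a Suz12 peak at an end or inside, against 13.1% of all protein-coding genes. An end peak was present at 14 genes (29.8%, 17.3 to 44.9), beside 11.7% of all genes. The other 5, Rora, Nr2f1, Esr1, Esrrb and Nr5a2, had interior peaks only, a share of 10.6% (3.55 to 23.1) beside 1.35% of all genes. With the genes that had both kinds, an interior peak was present at 8 of 47 (17.0%), beside 2.23% of all genes. The split between the classes rests on the limit of 2.5 kb: when a peak had to cover the gene end, 8 genes had an end peak (8.4% of all genes) and 10 an interior peak only (3.88%). The best peak reached a score of 3100 or more at 7 genes (14.9%), beside 1.71% of all genes. That value is where the deposited scores pile up, so scores from 3100 upward were treated as tied. These intervals cover counting error only and treat genes as independent.

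Receptor genes are long, with a median of 47143 bp against 17329 bp for all protein-coding genes, and a long gene has more room for an interior peak. Among genes longer than 100 kb, 4 of 13 receptor genes had an interior peak only (30.8%, 9.09 to 61.4). Of all 2427 protein-coding genes of that length, 130 did (5.36%). An end peak was present at 4 of the 13 receptor genes (30.8%, 9.09 to 61.4), near the 24.1% of all genes of that length. Among genes up to 100 kb, an end peak was found at 10 of 34 receptor genes (29.4%, 15.1 to 47.5), beside 10.2% of all genes of that length. An interior peak only was found at 1 of these 34 (2.94%, 0.0744 to 15.3), an interval that holds the 0.849% of all such genes. Other transcription factor families had peaks as well. Of 44 forkhead genes 26 (59.1%, 43.2 to 73.7) had an end peak, and of 19 Sox genes 13 (68.4%, 43.4 to 87.4), and in neither family was a gene found with an interior peak only. The forkhead and Sox genes are short, with medians of 5193.5 and 4794 bp. The difference between the families was not tested.

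**Figure D1:**
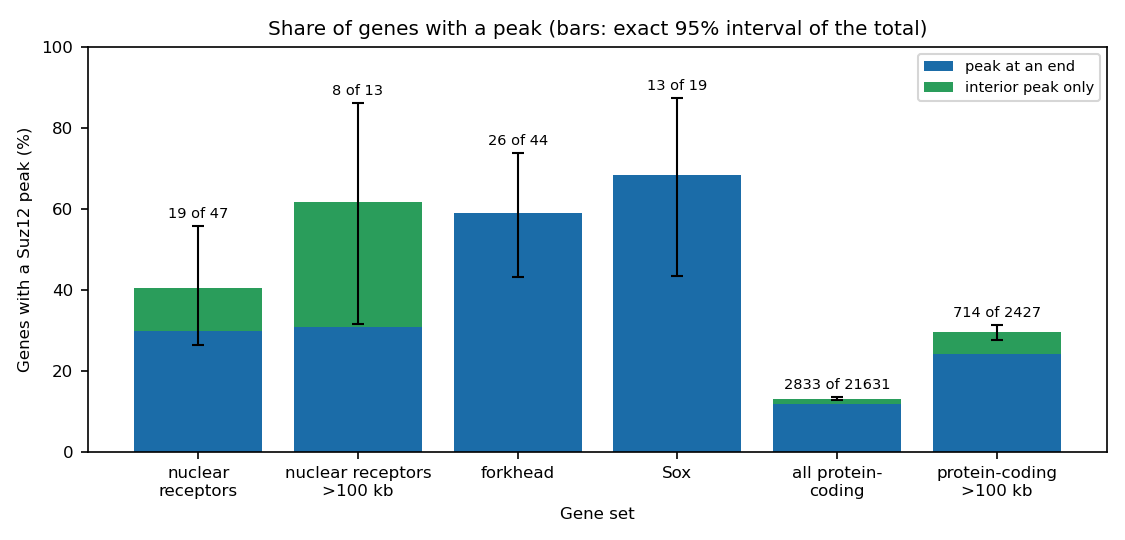
Percentage of genes with a Suz12 peak (vertical axis) in 6 gene sets, with end peaks in blue, genes with an interior peak only in green, and the exact 95% interval of the total as a line. The receptor genes stood at 40.4% in all, between the forkhead and Sox families and the background of all protein-coding genes. Among genes longer than 100 kb, the receptor genes stood at 61.5% (8 of 13, 31.6 to 86.1), beside 29.4% of all protein-coding genes of that length.

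The family falls into 19 subfamilies of close paralogs, of which 13 had a peak at 1 gene or more. In 12 of these 13 another paralog had none, and the exception was the subfamily of Nr5a1 and Nr5a2. Over the whole family 28 of 47 genes had no peak, and no subfamily holds more than 4 genes. No peak lay at the 14 genes of the other 6 subfamilies. By the standard numbering of the superfamily, a peak was found at 5 of 19 genes of group NR1, 4 of 12 of NR2, 5 of 8 of NR3, 2 of 3 of NR4, 2 of 2 of NR5, 0 of 1 of NR6 and 1 of 2 of NR0. The share over all protein-coding genes was 13.1%. The groups are small, and differences between them were not tested.

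**Figure D2:**
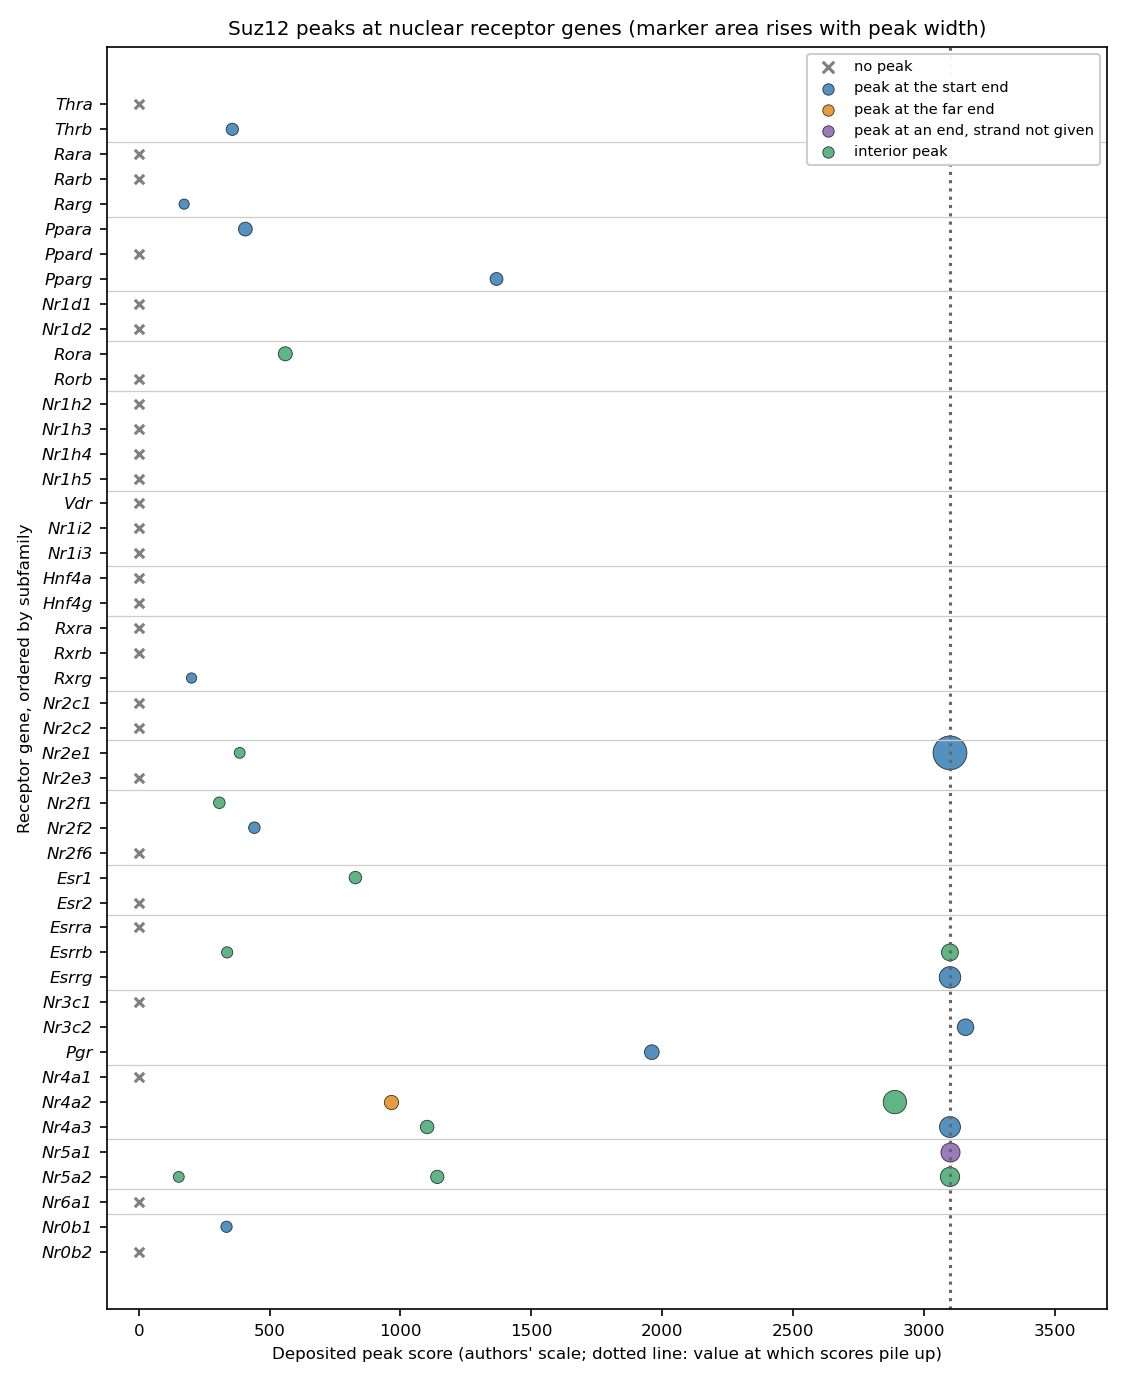
Deposited score (horizontal axis, the authors' scale) of each of the 25 peaks at the 47 receptor genes, listed by subfamily, with marker area rising with peak width, colour giving the place of the peak and crosses marking genes without one. Peaks at or above 3100, marked by the dotted line, were found at Nr2e1, Esrrb, Esrrg, Nr3c2, Nr4a3, Nr5a1 and Nr5a2.

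Group NR3, the steroid receptors and their orphan relatives, had a peak at 5 of its 8 genes, and at 3 of these, Nr3c2, Esrrb and Esrrg, the best peak scored 3100 or more. Nr3c2 encodes the mineralocorticoid receptor, which binds aldosterone. Its peak of 3562 bp at chr8:76898540-76902101 scored 3159.55 and ended 229 bp before the annotated start, so it lay upstream of that start and inside the outer bounds of the gene. The same peak reached the lncRNA gene Gm10649. Pgr, the progesterone receptor, had a peak of 2691 bp at chr9:8899740-8902430 with a score of 1961, which ran from 93 bp before the start to 2597 bp after it. The glucocorticoid receptor gene Nr3c1, by contrast, had its nearest peak 416096 bp away.

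Oestrogen receptor genes differed in the same manner. Esr1, which encodes oestrogen receptor alpha, had 1 interior peak of 1815 bp at chr10:4711439-4713253 with a score of 828. Esr2, which encodes the beta receptor, had none nearer than 226954 bp. The oestrogen-related receptors bind DNA without a known natural oestrogen ligand. Esrrg, expressed in heart, brain and kidney, had a peak of 6298 bp at chr1:187604582-187610879 with a score of 3100, which covered its first start and extended 4424 bp upstream, where it also reached the lncRNA genes Gm36388 and Gm46176. Esrrb, a factor of the undifferentiated state of embryonic stem cells, had 2 interior peaks. The wider, of 3758 bp at chr12:86420985-86424742, scored 3100, and the other, of 1362 bp at chr12:86469530-86470891, scored 338. Esrra, a regulator of mitochondrial genes, had no peak within the limit but narrowly so, since one of score 463 lay 2605 bp outside the gene.

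Group NR4 holds receptors that are induced quickly by many stimuli and act without a known ligand. At Nr4a3 a peak of 5963 bp at chr4:48044248-48050210 with a score of 3100 covered the start, and a second one of 2194 bp at chr4:48050351-48052544 with a score of 1102 followed it inside the gene. Both fell into 1 domain of 8297 bp when peaks within 3 kb were joined. Nr4a2, a factor needed for midbrain dopamine neurons, had a different layout. Its wide peak of 7547 bp at chr2:57109579-57117125, with a score of 2889, lay inside the gene and covered 43.9% of it, the highest share among the 47 genes. A further peak of 2496 bp at chr2:57101853-57104348 (score 963) lay beyond the far end, and neither reached the annotated start, which was 6878 bp from the nearer peak. Nr4a1, the third gene of the group, had its nearest peak 124249 bp away.

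Both genes of group NR5 had peaks with a score of 3100. Nr5a1 encodes SF1, a master regulator of the gonads and adrenal cortex. Its peak of 4876 bp at chr2:38708768-38713643 lay inside the gene and ended 899 bp short of its upper end. The same peak was the nearest to Nr6a1, a repressor of pluripotency genes, whose span begins 9726 bp from it and which had no peak of its own. Nr5a2 encodes LRH1, which acts in pluripotent cells, liver and gut. It had 3 interior peaks in a row, of 5026 bp at chr1:136945274-136950299 (score 3100), 1251 bp at chr1:136950547-136951797 (score 153) and 2115 bp at chr1:136951831-136953945 (score 1141). Joined, they formed a domain of 8672 bp. In group NR0, whose members lack the usual DNA-binding domain, Nr0b1 had a peak of 1378 bp over its start at chrX:86191447-86192824 with a score of 336, and Nr0b2 had its nearest peak 33466 bp away.

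The widest peak of the family lay at Nr2e1 in group NR2, which encodes TLX, a receptor that maintains neural stem cells. It measured 16364 bp at chr10:42577292-42593655, scored 3100, and ran from 10065 bp before the start to 6298 bp after it, reaching the lncRNA gene Gm38491 and the pseudogene Gm5036. A smaller interior peak of 1244 bp followed at chr10:42572277-42573520 with a score of 386. Its paralog Nr2e3, a photoreceptor factor, had no peak nearer than 1117815 bp.

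The COUP-TF genes Nr2f1 and Nr2f2 encode orphan receptors of the developing nervous system, vessels and heart that are known to rise with retinoic acid. Both had low-scoring peaks that did not cover an annotated start. Nr2f1 had an interior peak of 1467 bp at chr13:78194617-78196083 with a score of 308, which also reached the gene A830082K12Rik. Within 50 kb outside Nr2f1 lay 2 further peaks, the nearest 8733 bp away. Nr2f2 had a peak of 1456 bp at chr7:70369180-70370635 with a score of 442, which lay wholly beyond the gene, 2434 bp before the start, and reached the lncRNA gene B130024G19Rik. This is close to the limit of 2.5 kb, as is the far-end peak of Nr4a2 at 2482 bp, while Esrra at 2605 bp fell just outside. Nr2f6, the third COUP-TF gene, had no peak nearer than 79010 bp.

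The retinoid receptors, through which the added retinoic acid acts, had an end peak at 2 of 6 genes (33.3%, 4.33 to 77.7). This interval holds the 11.7% of all protein-coding genes. Both peaks were low in score, and neither stayed when peaks had to score double the lowest value or more. Of the 3 retinoic acid receptor genes only Rarg had one, of 1040 bp over its first start at chr15:102256612-102257651, with a score of 174. Rara and Rarb had none nearer than 6951 and 577543 bp. Of the 3 retinoid X receptor genes only Rxrg had one, of 1066 bp at chr1:167598057-167599122 over the first start, with a score of 202. Rxra and Rxrb had none nearer than 429397 and 31233 bp. The lowest score in the whole list was 150.3, so both of these peaks lay near the authors' threshold, and weaker signal at the genes called peak-free would not be listed.

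Group NR1 holds most of the ligand-activated metabolic receptors, and its peaks were at Thrb, Rarg, Ppara, Pparg and Rora. Pparg, the master regulator of fat cells, had the highest score of the group, 1367, in a peak of 1937 bp at chr6:115360689-115362625. Ppara, which drives fatty acid breakdown in liver, had a peak of 2305 bp at chr15:85734207-85736511 with a score of 408. Ppard, the third of these peroxisome proliferator-activated receptors, had none nearer than 61397 bp. Thrb, thyroid hormone receptor beta, had a peak of 1708 bp at chr14:17659874-17661581 with a score of 358, which also reached the protein-coding gene LOC115488350. The paralog Thra had none nearer than 193249 bp. In Rora, a receptor of cerebellum and immune cells, an interior peak of 2401 bp at chr9:69289606-69292006 scored 560.2 and lay 635820 bp from the annotated start, and Rorb had none nearer than 1092924 bp.

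No peak was found at the liver X receptors Nr1h2 and Nr1h3 or the farnesoid X receptors Nr1h4 and Nr1h5, which sense oxysterols and bile acids. The same held for the vitamin D receptor gene Vdr and the xenobiotic receptors Nr1i2 and Nr1i3, the circadian repressors Nr1d1 and Nr1d2, the liver factors Hnf4a and Hnf4g, and the orphan receptors Nr2c1 and Nr2c2. Over the 28 genes without a peak the median distance to the nearest one was 128722 bp, and the largest was 4850130 bp at Hnf4g. At 18 of them it was more than 100 kb. Only Rara, Esrra and Nr6a1 had one within 10 kb. Further peaks within 50 kb outside the gene were present at 10 of the 47 receptor genes (21.3%, 10.7 to 35.7), beside 18.3% of all protein-coding genes.

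Several receptor genes lie side by side with relatives. On chromosome 14, Rarb, Thrb and Nr1d2 follow each other from 16430839 to 18239106, and the peak at Thrb was the nearest one to both neighbours. On chromosome 11, their paralogs Thra, Nr1d1 and Rara lie between 98740776 and 98974942, and none of these 3 had a peak. Nr5a1 and Nr6a1 lie next to each other on chromosome 2, and the only peak over the pair was that of Nr5a1.

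Annotated start sites placed most of these peaks more closely. RefSeq starts were found for 43 of the 47 genes, 64 starts in all, and there was no entry for Thra, Hnf4g, Nr3c1 and Nr5a1. A peak lay within 2.5 kb of a start at 16 of the 43 genes (37.2%, 23.0 to 53.3), beside 10.0% of the 17274 protein-coding genes in that table. Of the 14 genes with an end peak, 12 had it at the end where transcription starts, 1 (Nr4a2) at the far end, and for Nr5a1 the strand is not given in the table. For this split between the ends, no share over all genes is given here. Peaks covered 13 of the 64 receptor starts outright, beside 1687 of 21045 starts of all protein-coding genes.

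Some receptor genes had several annotated starts, and a peak could lie within 2.5 kb of some of them and not of others. Of 16 receptor genes with 2 or more starts, 9 had a start within 2.5 kb of a peak, beside 13.8% of all such protein-coding genes, and in all 9 at least 1 other start had none. Among all 382 protein-coding genes with several starts and a peak near one, 204 (53.4%) had such a mixed state. Where the starts span more than 5 kb, this share was 184 of 204 (90.2%) for all genes and 8 of 8 for receptor genes, so the distance between starts moves with the mixed state. The first start held the peak at Thrb, Rarg, Rxrg and Esrrg, and at Pparg the first and the second of 3 starts did. At Nr2f1, Esr1, Esrrb and Nr5a2 it was the start farther along the gene.

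Those 4 genes are among the 5 with interior peaks only, so 4 of 5 such receptor genes had an annotated start within 2.5 kb of the interior peak. Over all protein-coding genes with interior peaks only and an entry in the table, the figure was 53.0% of 219. At Esrrb the peak of score 3100 covered the second start, at 86421644 on chromosome 12, from 659 bp before it to 3098 bp after it, while the first start lay 59868 bp away from it. At Nr5a2 the peak of score 1141 covered the second start, at 136953630 on chromosome 1, and the first start was 6503 bp from it. The peak of Esr1 began 1281 bp after the second start, 99450 bp from the first. At Nr2f1 the peak began 366 bp after the second start and lay 2790 bp from the first, so there the split between the starts rests on the limit of 2.5 kb. Rora was the exception, with 1 annotated start far from its interior peak.

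**Figure D3:**
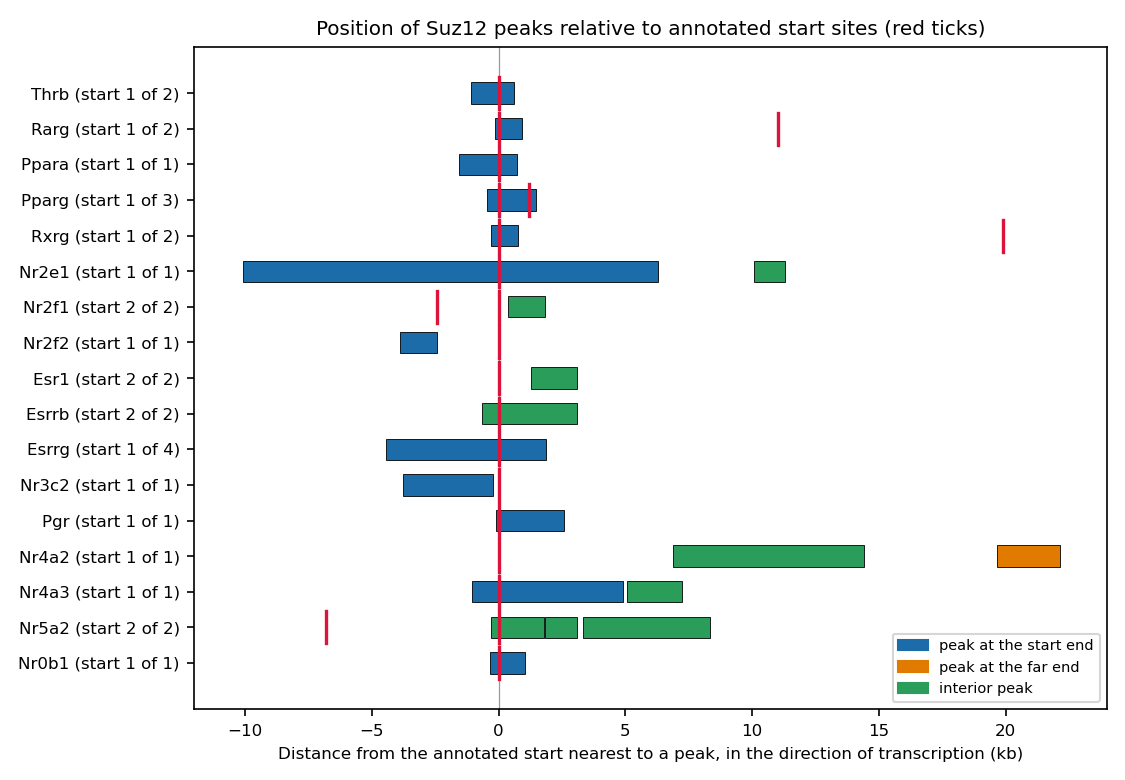
Peaks (bars) at 17 receptor genes drawn to scale by distance in kb from the annotated start nearest to a peak, in the direction of transcription, with every annotated start in the window as a red tick. Bars of Nr2f1, Esr1, Esrrb and Nr5a2 sit at or after a later start, and those of Nr4a2 lie 6878 bp or more after its start. The peak of Rora, the second peak of Esrrb and Nr5a1, which has no annotated start here, are not drawn.

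The sequences before the paired starts of Esrrb and Nr5a2 show the stretch that the peak covered beside the one it left out. Each is the 250 bases before the start from RefSeq on GRCm38.p6, written 5′ to 3′ on the strand of the gene, with CpG dinucleotides in capitals.
Esrrb first start, no peak, chr12:86360867-86361116, plus strand: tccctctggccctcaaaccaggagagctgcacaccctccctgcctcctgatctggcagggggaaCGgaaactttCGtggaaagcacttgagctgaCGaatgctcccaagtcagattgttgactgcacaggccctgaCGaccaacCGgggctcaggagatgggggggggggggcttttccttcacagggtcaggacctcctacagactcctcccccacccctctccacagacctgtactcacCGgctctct
Esrrb second start, under the peak, chr12:86421394-86421643, plus strand: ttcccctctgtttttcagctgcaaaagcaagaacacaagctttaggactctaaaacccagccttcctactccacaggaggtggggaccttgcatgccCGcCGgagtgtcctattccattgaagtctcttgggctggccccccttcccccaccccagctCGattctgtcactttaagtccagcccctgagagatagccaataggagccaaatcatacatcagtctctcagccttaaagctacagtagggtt
Nr5a2 first start, no peak, chr1:136960449-136960698, minus strand: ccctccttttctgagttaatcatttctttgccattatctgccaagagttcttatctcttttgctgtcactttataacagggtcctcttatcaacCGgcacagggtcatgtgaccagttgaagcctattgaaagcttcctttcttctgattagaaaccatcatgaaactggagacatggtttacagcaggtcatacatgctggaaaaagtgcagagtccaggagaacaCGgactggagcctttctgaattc
Nr5a2 second start, under the peak, chr1:136953631-136953880, minus strand: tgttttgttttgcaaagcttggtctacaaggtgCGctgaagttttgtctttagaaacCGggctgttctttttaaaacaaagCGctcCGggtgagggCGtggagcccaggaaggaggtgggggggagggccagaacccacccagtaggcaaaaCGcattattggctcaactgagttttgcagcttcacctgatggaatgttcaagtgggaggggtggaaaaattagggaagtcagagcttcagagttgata
In these stretches CpG dinucleotides were few, whether the start was under a peak or not. Esrrb had 6 before the first start and 3 before the second, and Nr5a2 had 2 before the first and 6 before the second.

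CpG content was then compared over all starts, since Polycomb Repressive Complex 2 is known at CpG islands and the series asks, by its title, about its recruitment to them. The ratio of observed to expected CpG corrects the CpG count for base composition. In the 250 bases before the start its median was 0.51 over the 17 receptor starts within 2.5 kb of a peak and 0.49 over the 47 starts without one. In a window of 300 bases, 50 of them after the start, the order turned round, with medians of 0.54 and 0.6. For all protein-coding starts the medians were 0.68 with a peak (2024 starts) and 0.51 without (19021 starts). With the usual limits of a ratio of at least 0.6 and a GC content of at least 50%, 6 of the 17 receptor starts near a peak (35.3%) and 18 of the 47 others (38.3%) were CpG-rich. Over all protein-coding starts these shares were 59.0% and 40.5%. The receptor starts are few and several share a gene, so this is a description of these starts, and the difference was not tested. The window ends at the start, so CpG dinucleotides downstream of it were not counted.

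**Figure D4:**
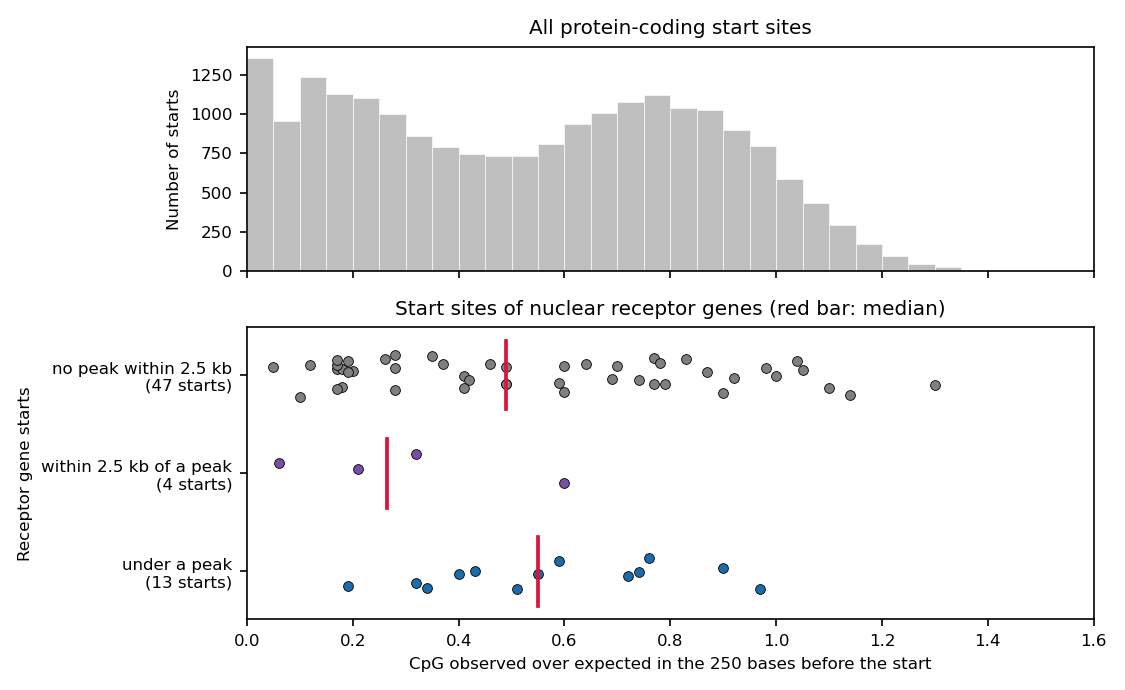
Observed over expected CpG in the 250 bases before the start (horizontal axis), as a histogram of 21045 protein-coding starts above and as points for the 64 receptor starts below, split by the nearest peak, with the median as a red bar. The 13 starts under a peak range from 0.19 to 0.97 and overlap the 47 starts without a peak, which range from 0.05 to 1.3.

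Single receptor genes spanned this range. The following 3 starts are shown because their CpG counts differ widely.
Pparg first start, under a peak, chr6:115360894-115361143, plus strand: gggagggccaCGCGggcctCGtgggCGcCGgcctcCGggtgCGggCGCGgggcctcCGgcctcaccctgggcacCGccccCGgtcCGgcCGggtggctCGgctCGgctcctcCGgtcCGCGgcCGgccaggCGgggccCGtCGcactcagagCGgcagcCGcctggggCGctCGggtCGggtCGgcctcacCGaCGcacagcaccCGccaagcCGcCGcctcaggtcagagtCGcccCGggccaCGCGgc
Pgr start, under a peak that covers the last 93 of these bases, chr9:8899583-8899832, plus strand: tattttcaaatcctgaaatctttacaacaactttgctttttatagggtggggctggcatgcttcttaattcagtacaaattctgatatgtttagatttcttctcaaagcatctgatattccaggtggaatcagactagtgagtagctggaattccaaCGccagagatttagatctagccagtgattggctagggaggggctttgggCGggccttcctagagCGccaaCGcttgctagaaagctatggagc
Rxra first start, no peak, chr2:27676951-27677200, plus strand: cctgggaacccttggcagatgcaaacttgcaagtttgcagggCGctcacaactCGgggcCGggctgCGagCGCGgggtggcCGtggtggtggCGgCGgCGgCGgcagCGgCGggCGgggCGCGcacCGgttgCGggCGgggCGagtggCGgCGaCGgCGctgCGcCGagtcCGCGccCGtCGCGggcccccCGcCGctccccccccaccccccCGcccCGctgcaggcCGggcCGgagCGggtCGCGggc
Pparg had 38 CpG dinucleotides before this start, all of them under the peak. Pgr had 4 before its start, all of them within the last 93 bases, which the peak covers. The rest of that stretch lay outside the peak, which extends 2597 bp into the gene. Rxra had 40 and no peak nearer than 515515 bp to this start. Another CpG-rich start without a peak was that of Nr2f6, with 42. Before the start of Nr4a2 there were 44, the highest number among the 64 starts, and its peaks lay farther along the gene.

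Sequence motifs were counted in the same windows on both strands. AGGTCA, the core motif bound by most nuclear receptors, was present before 11 of 64 receptor starts (17.2%), beside 12.8% of all 21045 protein-coding starts. It was found before 5 of the 17 receptor starts near a peak (29.4%), namely those of Thrb, Rarg, Nr0b1 and the first and second start of Pparg, and before 6 of the 47 others (12.8%). Over all protein-coding starts near a peak the share was 9.34%. The 2 starts of Pparg lie under the same peak. Its direct repeat with a spacer of 5 bases, the classical retinoic acid response element, written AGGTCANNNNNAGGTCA, had no exact match before any receptor start and 1 over all protein-coding starts. GGGCGG, bound by Sp factors, was present before 8 of the 17 (47.1%) and 20 of the 47 (42.6%), beside 43.1% of all starts and 63.3% of all protein-coding starts near a peak. CACGTG, the E-box of the clock and Myc factors, was present before 0 of the 17 and 5 of the 47, beside 6.7% of all starts and 7.16% of those near a peak. A match is a description of these letters and not a bound site.

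As a group, the peaks at receptor genes were close in width to the list as a whole and scored higher. Their median width was 2194 bp (1040 to 16364 bp) against 1849 bp for all peaks, and their median score 963 (153 to 3159.55) against 572. Of the 25 peaks 7 (28.0%) scored 3100 or more, beside 10.5% of all peaks. Among genes with an end peak, the best such peak had a median score of 1165 at the 14 receptor genes and 661 at all 2540 protein-coding genes. In all, 6 of the 25 peaks also reached another gene, most often an lncRNA gene. The share over all peaks is not given here, so this count is a description only.

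Genes that supply ligands to the receptors, or act with them, were taken as 6 lists of 86 genes, all of which were matched. Retinoid supply and breakdown had an end peak at 6 of 16 genes (37.5%, 15.2 to 64.6), beside 11.7% of all protein-coding genes. Among these end peaks the highest scores were at Aldh1a2 (2724), which makes retinoic acid, and Crabp1 (2376), which binds it in the cell. Aldh1a3 (851), Lrat (509), Rbp4 (417) and Cyp26a1 (411), which breaks retinoic acid down, followed. Cyp26b1 had interior peaks only, the higher with a score of 1343, above that of Aldh1a3. The members without a peak included Aldh1a1, Bco1, Crabp2 and Cyp26c1.

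For thyroid hormone supply, 2 of 9 genes had an end peak (22.2%, 2.81 to 60.0), an interval that holds the 11.7% of all protein-coding genes. They were Dio3 (3100), the enzyme that inactivates thyroid hormone, with a peak of 7023 bp, and the transporter gene Slc16a10 (153). Dio1, Dio2 and Slco1c1 had none. Steroid and vitamin D synthesis and breakdown had an end peak at 3 of 16 (18.8%, 4.05 to 45.6), which holds the same 11.7%. Cyp24a1 (3100), which degrades active vitamin D, and Cyp27b1 (939), which makes it, were both marked, while their receptor gene Vdr was not. The peak at Cyp24a1 also reached Pfdn4 and that at Cyp27b1 reached Mettl1. Hsd17b1 (709) shared its peak with Naglu and Coasy. The steroid enzymes Cyp11a1, Cyp11b1, Cyp11b2 and Cyp17a1 had none.

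Coregulators had an end peak at 2 of 24 genes (8.33%, 1.03 to 27.0), a share near the background. These were Ppargc1a (3100) and Ppargc1b (385), which encode coactivators of mitochondrial and metabolic genes. Carm1, Crebbp, Dcaf6 and Ep300 had none, nor did the corepressor gene Ncor1. Bile acid and sterol targets had 1 of 12 (8.33%, 0.211 to 38.5), the lipid exporter gene Abcg1 (314), with none at Abca1, Abcb11, Abcg5 and Abcg8. Steroid receptor chaperones had 0 of 9 (interval up to 33.6%), with none at Bag1, Dnaja1, Fkbp4 and Fkbp5.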

How the data were processed

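Suz12 ChIP-seq was carried out on 2 libraries of mouse embryonic stem cells, per the labels, and the list of peaks from wild-type cells at 72 h is the one analysed. Bowtie, MACS and build GRCm38 (mm10) are named in the submitters' processing notes. For roles, versions, parameters, control and pooling, nothing is given in the sources used here. Each deposited peak has a position and a score. The score is the authors' own, its scale is not stated in the file, and it served only to order, describe or filter the peaks. At 3100 the scores pile up (325 peaks, with 30 above).

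Peaks were placed on RefSeq gene bounds of GRCm38.p6 with Python 3.11.15, pandas 2.3.3 and scipy 1.17.1, in 1-based coordinates, and the placing was tested on simulated peaks. RefSeq promoter entries gave starts and sequence. Exons, introns and untranslated regions were not told apart. CpG ratios and motifs used the 250 bases before each start. No test was run, since each group has 1 library. Shares carry exact (Clopper-Pearson) 95% intervals.

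All 47 receptor genes are named. Of each gene list, up to 6 members with a peak by score and up to 4 without one in alphabetical order are named, and any others were chosen after their values were seen. Some list members are not reported here by name. The receptor genes and lists were chosen with earlier results of these data known. Alternatives varied the distance to the gene end, the peak filters, the use of midpoints and the sequence window.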

Additional observations from a re-analysis of the deposited data

How the results depend on the processing

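Of 39 alternative values, 30 stayed within 1.5 times the main count or within the spread of the values or kept their sign, 8 moved and 1 reversed. When a peak had to cover the gene end, 8 receptor genes had an end peak (8.4% of all protein-coding genes) and 10 an interior peak only (3.88%), since Thrb, Nr3c2, Pgr, Nr4a2 and Nr5a1 changed class and Nr2f2 lost its peak. With scores at or above the median, 11 receptor genes had a peak, beside 7.24% of all protein-coding genes. Of these 11, 8 had it at an end (6.46% of all genes) and 3 inside only (0.786% of all genes). With widths at or above the median, 12 receptor genes had a peak, beside 7.28% of all protein-coding genes. Of these 12, 9 had it at an end (6.48% of all genes) and 3 inside only (0.8% of all genes). By construction fewer peaks entered these counts. Within 1 kb 18 receptor genes had a peak, beside 12.6% of all protein-coding genes. Within 5 kb 20 had one, Esrra being added, beside 14% of all protein-coding genes. Rarg and Rxrg were lost when peaks had to score double the lowest value or more. The median CpG ratio of receptor starts near a peak exceeded that of the others by 0.02, and in a window of 300 bases, 50 of them after the start and chosen after seeing the data, the difference was -0.06 (0.54 against 0.6). The cause was not tested. The depth is unknown and 1 library gives no replicate error.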
